A study of Mus musculus with 2 samples.

Results

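The 31 genes described here encode the enzymes and transporters of glycolysis and a set of genes of the oxygen-sensing pathway. They were taken by gene symbol from the feature tables of both libraries of the series, by a list that sets no threshold on their values. All 31 symbols were found, as 32 of the 32286 features, because Aldoa occurs under 2 Ensembl identifiers (ENSMUSG00000030695 and ENSMUSG00000114515) that were summed; the second gave 0 pulse and 2 chase unique molecular identifiers (UMIs, counted mRNA molecules) in the classes compared. The series holds 2 single-cell RNA libraries, pulse and chase, of tdTomato-positive cells sorted from the digested endosteal bone of femur and tibia. All mice were male Adipoq-CreERT2;Ai9 animals. In them a tamoxifen-inducible Cre driven by the adiponectin gene switches on a permanent tdTomato label in cells that transcribe Adipoq. Tamoxifen was given on 3 days at 8 weeks of age, and cells were collected 24 h later for the pulse library and 4 weeks later for the chase library. The series used 4 mice; the labels do not divide them between the libraries. Each time point has 1 library. By the labels, the sorted cells were 0.01% of the total in pulse and 0.29% in chase. With 1 library per time point, time after labelling, the age of the mice, this sorted share and the library cannot be told apart. No difference between pulse and chase has a replicate check, and every interval below covers counting error only.

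Glycolysis splits glucose into pyruvate in a chain of enzymatic steps, and lactate dehydrogenase and a lactate exporter dispose of the pyruvate when it is not oxidised in mitochondria. Many of these genes are targets of the hypoxia-inducible factors (HIFs). Their alpha subunits, Hif1a and Epas1 (also called HIF2A), are hydroxylated by the Egln prolyl hydroxylases and degraded when oxygen is present. HIF protein is controlled mainly after translation, so the mRNA of an alpha subunit does not measure its activity. Marrow is a tissue of low oxygen tension, and CAR cells (CXCL12-abundant reticular cells, the stromal cells that support blood stem cells) lie along its sinusoids.

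HIF binds the core letters ACGTG or GCGTG. These letters were searched on both strands, with overlapping matches counted separately, in the 250 bases before each gene start in the RefSeq promoter table (build GRCm38.p6). Of the 29 members with an entry, 27 (93.1%) held at least 1 match in any of their windows and 19 (65.5%) held 2 or more. Of all 27025 genes in the table, 41.5% held 1 and 18.7% held 2 or more. Base composition differed too: the median GC content of the first window was 64.0% in the members and 52.0% in all genes, and the median number of CpG dinucleotides was 16 against 6. Slc2a3 and Epas1 are named only. A match is a description of letters and not a binding site. The stretches of 60 bases shown belong to members whose levels separate the cell classes or time points below, with Pgk1 as a glycolytic enzyme for comparison. Matches to the core on either strand are in capitals. They lie at chr6:82774621-82774680 (minus strand) for Hk2, chr7:138909568-138909627 (minus strand) for Bnip3, chr10:59323133-59323192 (plus strand) for P4ha1, chr2:71873118-71873177 (plus strand) for Pdk1, chr10:59951898-59951957 (minus strand) for Ddit4 and chrX:106186931-106186990 (plus strand) for Pgk1.
Hk2: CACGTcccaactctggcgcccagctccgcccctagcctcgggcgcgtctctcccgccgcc
Bnip3: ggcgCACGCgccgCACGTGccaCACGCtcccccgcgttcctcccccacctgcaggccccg
P4ha1: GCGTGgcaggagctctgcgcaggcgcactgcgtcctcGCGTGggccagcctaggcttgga
Pdk1: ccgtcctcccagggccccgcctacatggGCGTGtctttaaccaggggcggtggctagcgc
Ddit4: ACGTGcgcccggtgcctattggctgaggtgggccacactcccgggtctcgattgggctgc
Pgk1: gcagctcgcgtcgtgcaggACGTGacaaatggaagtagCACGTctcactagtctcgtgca
The Bnip3 stretch holds 4 of the gene's 5 matches, and the Pgk1 stretch holds both of its matches.

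The pulse library held 10608 barcodes with 89009901 UMIs and the chase library 10046 barcodes with 82939659 UMIs; after filters and removal of called doublets, 9212 and 8335 cells were kept, with medians of 7772.5 and 7489 UMIs. The 2 libraries shared 52 barcode sequences. Cells were assigned to classes by marker genes, none of which is a member. The 10 classes with at least 50 cells in each library held 7459 (81.0%) and 6957 (83.5%) of the kept cells. Adipogenic CAR-like cells, gated on Adipoq, Lepr, Cxcl12 and other markers, numbered 3748 in pulse and 3678 in chase, with 2174 and 2105 tdTomato UMIs per 1e6 UMIs of the class (CPM). Osteogenic CAR-like cells (Alpl, Wif1, Spp1) numbered 417 and 361, osteoblast-like cells (Bglap, Col1a1, Ibsp) 444 and 331, and endothelial-like cells (Pecam1, Cdh5, Emcn) 285 and 235. The 6 blood classes were monocyte or macrophage, neutrophil, myeloid progenitor, B cell, T or NK cell and erythroid, each called "-like" from its markers. The sort was for tdTomato, and these cells were present all the same: their tdTomato level was between 34.9 and 184 CPM outside the lymphoid classes, and reached 1069 CPM in T or NK cell-like cells. In joint clusters of both libraries, adipogenic CAR-like cells fell partly into clusters of 1 library (1460 pulse and 62 chase cells, 1238 and 53, and 76 and 2039) and partly into mixed ones (306 and 1057, and 628 and 344). Stromal transcripts were also counted in every class. Cxcl12, at 20547 and 25170 CPM in adipogenic CAR-like cells, stood in the endothelial-like and blood classes at 0.635% to 3.27% of that level; whether free RNA, missed doublets or the gate gave these UMIs was not tested.

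Among the 10 classes compared, the summed level of the 31 members was highest in myeloid progenitor-like cells (5078 CPM in pulse and 5179 in chase) and neutrophil-like cells (4464 and 4158 CPM). It was 2750 and 2611 CPM in adipogenic CAR-like cells, 2222 and 1912 in osteogenic CAR-like cells, 3377 and 3146 in endothelial-like cells and lowest among the stromal classes in osteoblast-like cells (1422 and 1326). Per cell the order of the stromal classes was different. An osteoblast-like cell held 29.3 and 23.5 member UMIs and an adipogenic CAR-like cell 23.2 and 17.8, since osteoblast-like cells were deeper (medians of 21229 and 17943 UMIs against 8129 and 6599.5) and their own markers, led by collagen and osteocalcin genes, stood at 328917 and 306659 CPM. Of the 31 members, 28 were highest in the same one of the 10 classes in both libraries. Of these, 9 peaked in myeloid progenitor-like cells, 6 in endothelial-like, 4 in neutrophil-like, and 2 each in adipogenic CAR-like, osteoblast-like and erythroid-like cells. The same counts were not made over all genes, so they are not read as a trait of the members. The library is a 3′ tag count with 1 tag per captured molecule, so CPM does not scale with gene length, but capture can still differ between genes and levels are compared below between cells rather than between genes, except as shares within an isozyme family.

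**Figure D1:**
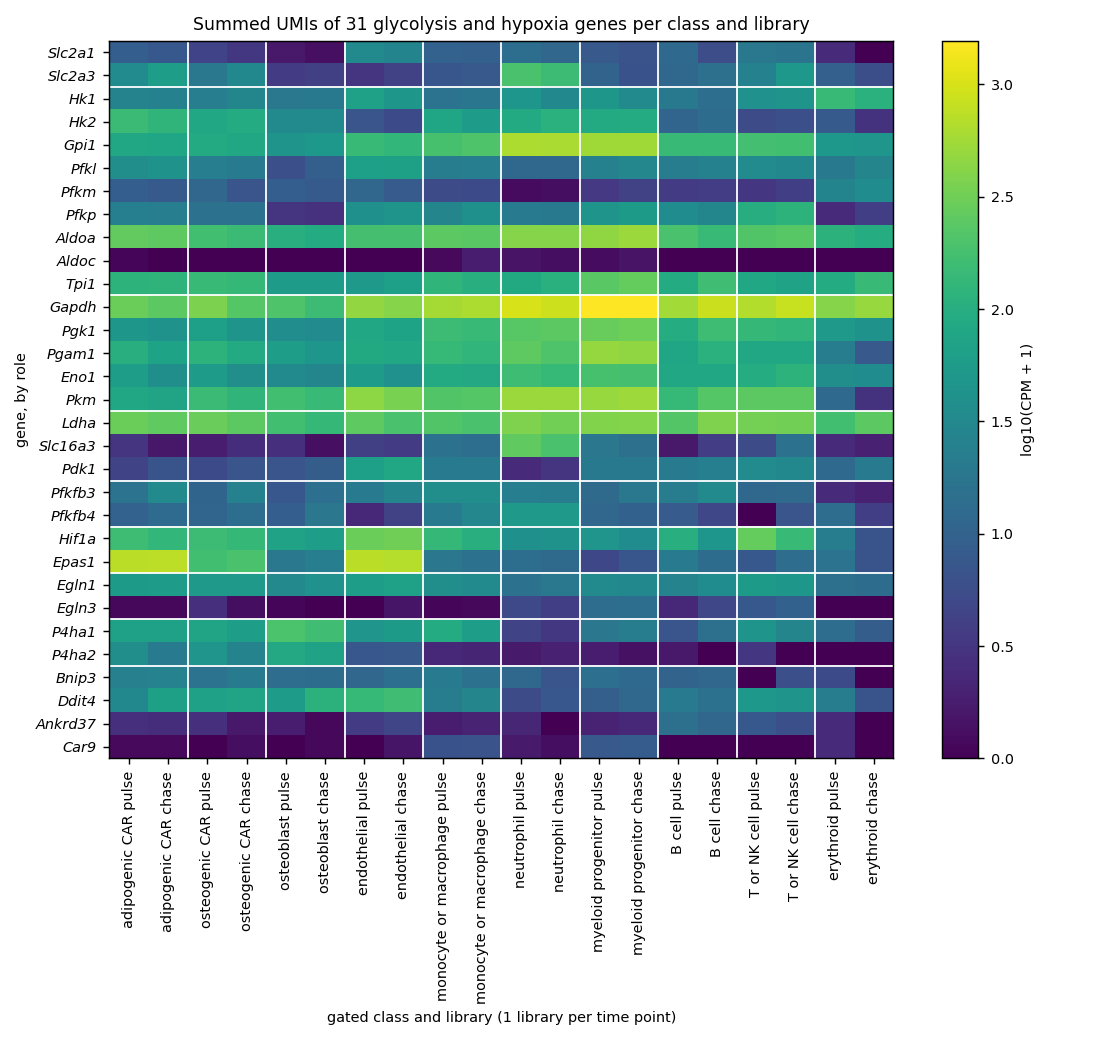
Level of each of the 31 members (rows, by role) in the 10 classes of each library (columns), as log10 of CPM plus 1. Neighbouring pulse and chase columns resemble each other, the lower glycolysis rows are brightest in myeloid progenitor-like and neutrophil-like cells, and the Epas1 row is bright in adipogenic CAR-like and endothelial-like cells.

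The 2 HIF alpha subunits divided the stroma. Epas1 (chr17:86753700-86833410, GENCODE vM21) was at 721 CPM in pulse and 745 CPM in chase adipogenic CAR-like cells and at 740 and 699 CPM in endothelial-like cells. Osteogenic CAR-like cells had 170 and 186 CPM, 4.23-fold (95% interval 3.93 to 4.57) and 4.00-fold (3.68 to 4.36) below adipogenic CAR-like cells of the same library. Osteoblast-like cells had 18.2 and 22.0 CPM, 39.5-fold (33.9 to 46.3) and 33.8-fold (28.5 to 40.6) below. The summed levels of the 3 skeletal classes thus lay apart beyond counting error in each library. Cells tied between classes had been left out. The share of all genes that separate these classes in this way was not computed. Adipoq, which marks the CAR cells, stood at 20.9 and 24.1 CPM in osteoblast-like cells against 1911 and 2040 CPM; the part of free RNA in their Epas1 level was not tested. When every cell was thinned to 2000 UMIs, 71.7% and 72.2% of adipogenic CAR-like cells, 71.5% and 75.7% of endothelial-like cells, and 4.35% and 7.82% of osteoblast-like cells held an Epas1 UMI; unthinned, the shares were 94.7% and 92.7%, 96.8% and 95.3%, and 26.6% in both libraries. In neutrophil-like cells Epas1 stood at 13.1 and 11.9 CPM, where its CAR-cell level scaled by the class's Adipoq or Cxcl12 share comes to 11.5 or 12.8 CPM in pulse and 9.63 or 11 CPM in chase, and 5.30% and 1.82% of thinned cells held a UMI. Epas1 in the myeloid progenitor-like, T or NK cell-like and erythroid-like cells was at 3.99 to 15.6 CPM, against 3.71 to 9.34 CPM by the same scaling. Among these classes the largest gap was in pulse erythroid-like cells, with 15.6 CPM against 4.80 or 7.99 CPM. B cell-like cells had 20.6 CPM in pulse against 8.52 or 11.7 CPM, and 12.3 CPM in chase against 5.86 or 8.41 CPM. Monocyte or macrophage-like cells had 17.5 CPM in pulse against 8.96 or 14.3 CPM, and 15.0 CPM in chase against 8.39 or 11.3 CPM. The part of free RNA in these levels was not tested.

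Hif1a was spread more evenly. It was highest in endothelial-like cells (302 CPM in pulse and 317 in chase), which is 1.88-fold (1.74 to 2.04) and 2.45-fold (2.24 to 2.67) above adipogenic CAR-like cells (160 and 129 CPM). Osteogenic CAR-like cells, at 153 and 133 CPM, did not differ from adipogenic CAR-like cells by the threshold, while osteoblast-like cells had 68.2 and 61.6 CPM. Hif1a thus made up 18.2% and 14.8% of the UMIs of the 2 subunits in adipogenic CAR-like cells, 47.4% and 41.6% in osteogenic CAR-like cells, and 78.9% and 73.7% in osteoblast-like cells. Endothelial-like cells were at 28.9% and 31.2%. Of the hydroxylases that mark the subunits for degradation, Egln1 lay between 31 and 67.0 CPM in the 4 stromal and endothelial classes and between 12.6 and 53.3 CPM in the blood classes. Egln3, an inducible member of the same family, was at 13 and 13.2 CPM in myeloid progenitor-like cells and at 0.158 and 0.159 CPM (5 and 4 UMIs) in adipogenic CAR-like cells, a ratio of 82.3 (33.0 to 265) and 82.9 (31.7 to 309).

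Slc2a1 and Slc2a3 are the glucose transporter genes among the members, and their shares of the UMIs of the pair differed between classes. Several classes, such as myeloid progenitor-like cells, held both. These mRNA shares do not measure glucose uptake, and which transporter a class uses was not tested. Slc2a1, the transporter of the blood-brain barrier endothelium, was highest in endothelial-like cells at 31.8 and 26.7 CPM, where it made up 93.7% and 89.5% of the UMIs of the pair. Adipogenic CAR-like cells had 8.13 and 6.68 CPM of Slc2a1 and 33.4 and 61.3 CPM of Slc2a3, so that Slc2a3 made up 80.4% and 90.2%. Slc2a3, a high-affinity transporter, was highest in neutrophil-like cells (186 and 155 CPM). Osteoblast-like cells were low in both, with 0.656 and 0.341 CPM of Slc2a1 and 2.62 and 3.07 CPM of Slc2a3. The summed level of the pair was 3.28 and 3.41 CPM in osteoblast-like cells against 41.5 and 68.0 CPM in adipogenic CAR-like cells.

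The hexokinases, which trap glucose as its phosphate, separated the classes further. Hk2 (chr6:82725025-82774454), the insulin-responsive isozyme of muscle and fat, was highest in adipogenic CAR-like cells at 151 and 121 CPM. Osteogenic CAR-like cells had 79.3 and 91.5 CPM, which is below adipogenic CAR-like cells in both libraries but past the 1.5-fold threshold only in pulse, osteoblast-like cells 31.8 and 31.9 CPM, and endothelial-like cells 6.02 and 4.19 CPM. The endothelial difference was 25.1-fold (14.9 to 45.9) in pulse and 28.8-fold (14.6 to 66.8) in chase. The CAR-cell level of Hk2 scaled by the endothelial Adipoq or Cxcl12 share comes to 4.13 or 4.93 CPM in pulse and 2.17 or 2.52 CPM in chase, and the part of free RNA in the endothelial level was not tested. Hk1 was instead highest in erythroid-like cells (143 and 110 CPM) and was 67.0 and 47.6 CPM in endothelial-like cells. Of the hexokinase UMIs, Hk2 gave 85.0% and 82.3% in adipogenic CAR-like cells, Hk1 gave 89.1% and 88.3% in endothelial-like cells, and Hk3, which is not a member, gave 50.6% and 49.3% in neutrophil-like cells. Thinned to 2000 UMIs, 21.3% and 15.8% of adipogenic CAR-like cells and 1.06% and 1.28% of endothelial-like cells held an Hk2 UMI (48.2% and 33.7%, and 3.51% and 2.98%, unthinned).

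Phosphofructokinase, the committed step, has 3 genes. Pfkl, the liver-type subunit, gave 54.0% and 58.6% of their UMIs in adipogenic CAR-like cells and 56.0% and 55.5% in endothelial-like cells. Pfkp, the platelet-type subunit, gave 73.3% and 78.0% in T or NK cell-like cells, where its level was highest at 97.6 and 116 CPM. Pfkm, the muscle-type subunit, gave 57.6% and 53.7% in erythroid-like cells (26.9 and 34.9 CPM). In osteoblast-like cells Pfkl and Pfkp were at 5.03 and 8.19 CPM and at 2.08 and 1.88 CPM, lower than in adipogenic CAR-like cells by 7.24-fold (5.39 to 9.94) and 5.01-fold (3.75 to 6.83), and by 11.1-fold (7.03 to 18.5) and 11.7-fold (6.51 to 23.6). Pfkm did not follow them, at 7.98 and 7.0 CPM against 8.00 and 6.96 CPM. Over all genes tested, the median log2 ratio of osteoblast-like to adipogenic CAR-like cells was -0.97 in pulse and -0.86 in chase, so these ratios include a shift shared by most genes.

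**Figure D2:**
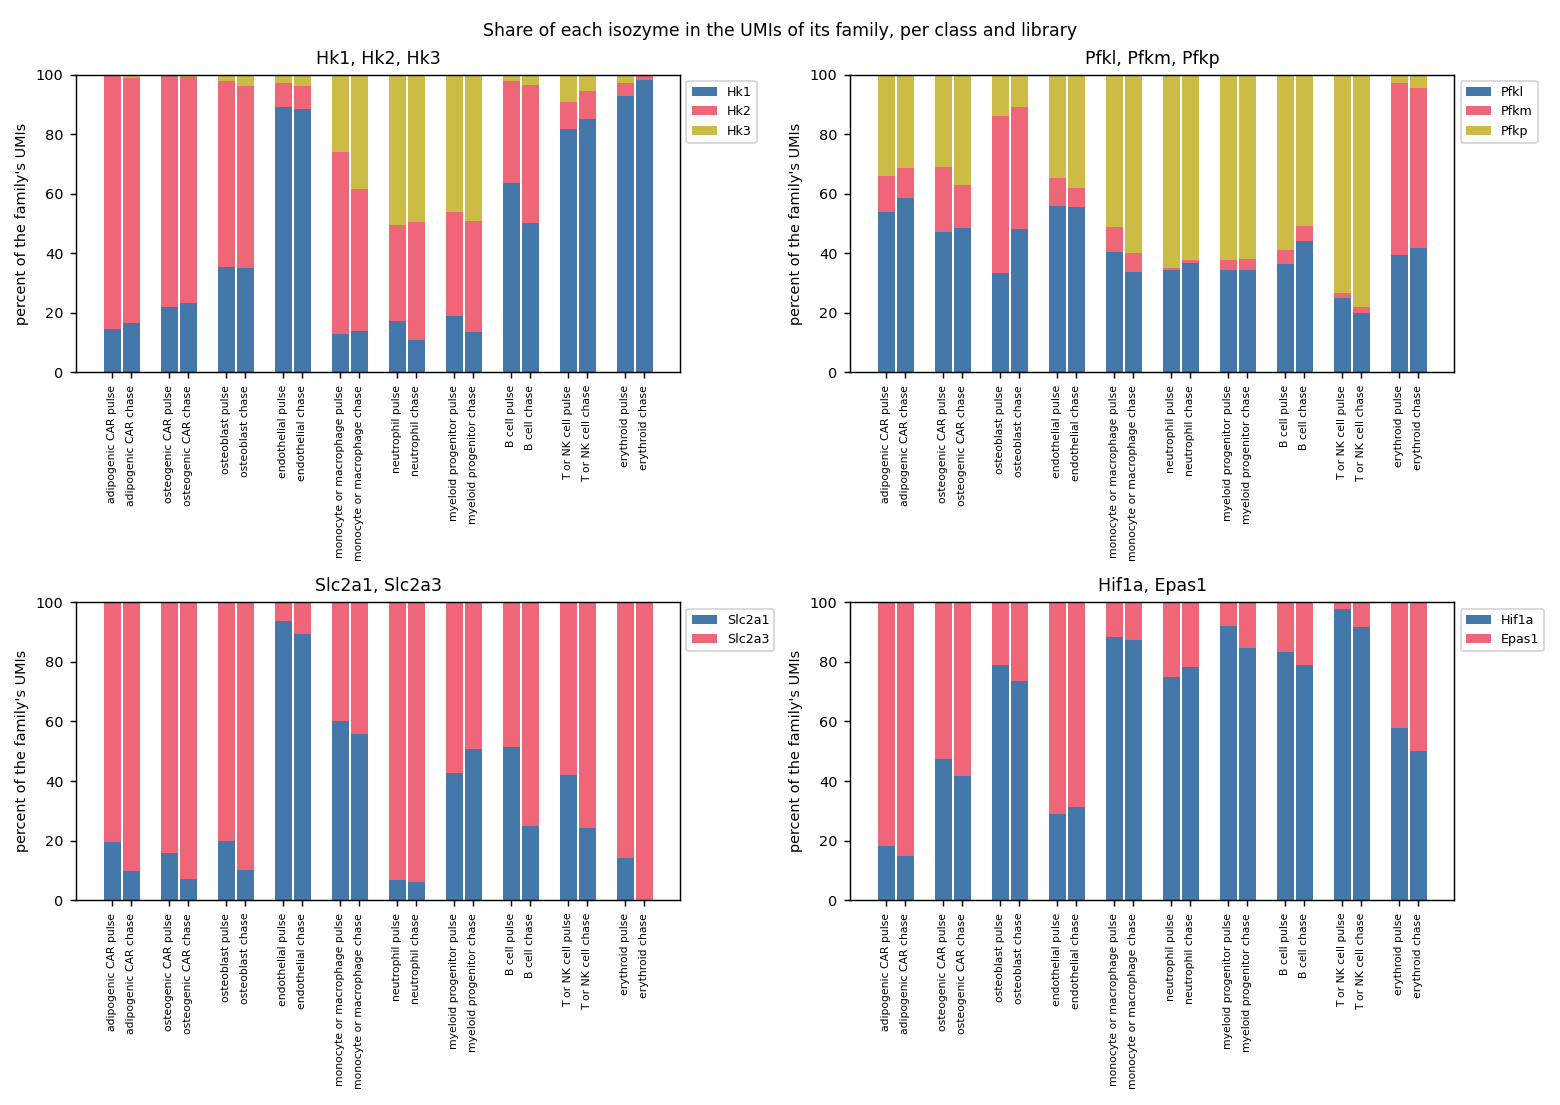
Percent of the UMIs of each isozyme family given by each gene, per class and library, for hexokinases, phosphofructokinases, glucose transporters and HIF alpha subunits. Hk2 fills 85.0% and 82.3% of the hexokinase bars in adipogenic CAR-like cells and Hk1 89.1% and 88.3% in endothelial-like cells, and Slc2a1 exceeds Slc2a3 most clearly in endothelial-like cells.

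The kinase-phosphatases Pfkfb3 and Pfkfb4 set the level of the metabolite that activates phosphofructokinase. Pfkfb3 was at 15.4 CPM in pulse and 33.1 CPM in chase adipogenic CAR-like cells and highest in monocyte or macrophage-like cells (37.2 and 37.4 CPM). Pfkfb4 was highest in neutrophil-like cells at 50.4 and 50.5 CPM, which is 5.52-fold (4.60 to 6.61) and 4.15-fold (3.39 to 5.05) above adipogenic CAR-like cells.

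The summed level of the 5 lower enzymes (Gapdh, Pgk1, Pgam1, Eno1, Pkm) was 584 and 467 CPM in adipogenic CAR-like cells, 498 and 404 in osteoblast-like cells, 1143 and 953 in endothelial-like cells and 3021 and 3034 in myeloid progenitor-like cells. Aldoa, Tpi1, Gapdh, Pgk1, Pgam1 and Eno1 were each highest in myeloid progenitor-like cells in both libraries, for example Pgk1, the first step that yields ATP, at 286 and 310 CPM against 48.3 and 41.4 CPM in adipogenic CAR-like cells. Gpi1, the phosphoglucose isomerase, was highest in neutrophil-like cells at 632 and 622 CPM against 80.9 and 76.0 CPM. The Gapdh and Eno1 values are uncertain: the last 400 bases of the Gapdh transcript match 104 other annotated genes, of which 102 are pseudogenes, at 95% identity or more over 90 or more bases, and those of Eno1 match 1, and reads could have been split among these copies. No other member had such a copy.

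Pkm, the pyruvate kinase, was highest in neutrophil-like cells in pulse (518 CPM) and in myeloid progenitor-like cells in chase (526 CPM). It was 78.4 and 71.4 CPM in adipogenic CAR-like cells, 151 and 123 CPM in osteogenic CAR-like cells, 169 and 144 CPM in osteoblast-like cells and 450 and 357 CPM in endothelial-like cells. It was the only one of the 5 lower enzymes that was higher in osteogenic CAR-like than in adipogenic CAR-like cells by the call, at 1.93-fold (1.77 to 2.11) and 1.72-fold (1.54 to 1.93). In endothelial-like cells the ratio was 5.74 (5.34 to 6.17) and 5.00 (4.57 to 5.47). Erythroid-like cells had 11.3 and 1.94 CPM, which rests on 8 and 2 UMIs; red cells use another pyruvate kinase gene that is not a member. Aldoc, the brain-type aldolase, gave 23 UMIs over the 10 classes in both libraries.

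For the fate of pyruvate, Ldha, which makes lactate, was 295 and 256 CPM in adipogenic CAR-like cells and between 134 and 394 CPM in the other 9 classes. Slc16a3 (chr11:120948480-120960868), the lactate exporter of glycolytic cells, was low in the CAR-like classes, at 2.12 and 0.597 CPM in adipogenic CAR-like cells and 0.732 and 1.65 CPM in osteogenic CAR-like cells. In neutrophil-like cells it was 262 and 188 CPM, 124-fold (96.5 to 161) and 315-fold (189 to 567) higher. Thinned to 2000 UMIs, 41.1% and 31.8% of neutrophil-like cells and 0.384% and 0.058% of adipogenic CAR-like cells held an Slc16a3 UMI (71.7% and 58.9%, and 1.36% and 0.381%, unthinned). Pdk1 (chr2:71873224-71903858), a kinase that inhibits the pyruvate dehydrogenase of mitochondria, was highest in endothelial-like cells. It stood there at 62.3 and 78.5 CPM against 3.57 and 5.85 CPM in adipogenic CAR-like cells, 17.4-fold (13.5 to 22.5) and 13.4-fold (10.6 to 17.0) higher.

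The collagen prolyl hydroxylases P4ha1 and P4ha2, which stabilise the collagen triple helix, were highest in osteoblast-like cells. P4ha1 was at 192 and 162 CPM there against 66.2 and 65.5 CPM in adipogenic CAR-like cells, 2.89-fold (2.71 to 3.08) and 2.47-fold (2.28 to 2.68). P4ha2 was at 84.6 and 68.9 CPM against 36.9 and 20.3 CPM, 2.29-fold (2.09 to 2.52) and 3.39-fold (2.97 to 3.87). Monocyte or macrophage-like cells had P4ha1 at 91.5 and 58.5 CPM and almost no P4ha2 (1.25 and 1.14 CPM). Among the other HIF targets, Bnip3, a mitophagy receptor, was highest in adipogenic CAR-like cells at 23.4 and 25.3 CPM, and Ddit4, an inhibitor of mTORC1, was highest in endothelial-like cells at 138 and 164 CPM. Car9, a carbonic anhydrase and a standard hypoxia marker, was at 0.190 and 0.199 CPM (6 and 5 UMIs) in adipogenic CAR-like cells and at 6.91 and 7.41 CPM in myeloid progenitor-like cells. Ankrd37 was highest in B cell-like cells at 14.0 and 10.4 CPM.

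Counted against adipogenic CAR-like cells of the same library, a member was called when its ratio was at least 1.5-fold with an interval that excludes 1, the same way in both libraries, among genes with at least 50 UMIs in the 2 classes in each library. The 50 UMIs were summed over the 2 classes, so a member could pass the filter through adipogenic CAR-like cells alone. In osteogenic CAR-like cells 26 members were tested. Of these 1 was higher (Pkm; 7.30% of all genes tested were higher) and 5 were lower (Epas1, Slc2a1, Slc2a3, Pfkl and Aldoa; 9.60% of all genes). Slc2a3 had 18.1 and 29.6 CPM there, 1.85-fold (1.46 to 2.37) and 2.07-fold (1.67 to 2.59) below adipogenic CAR-like cells. The median log2 ratio of the members was -0.03 in pulse and -0.09 in chase against -0.02 and 0.02 over all genes.

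In osteoblast-like cells 26 members were tested, 4 were higher (Pkm, Ddit4, P4ha1, P4ha2; 6.05% of all genes) and 14 were lower (58.6% of all genes). The share of members lower was thus near that of all genes, and the medians were -0.83 and -0.65 against -0.97 and -0.86 over all genes. With median-of-ratios size factors, which centre the ratios on the typical gene, 7 members were higher and 6 lower (Epas1, Hk2, Slc2a1, Slc2a3, Pfkl and Pfkp remained), and Gpi1 and Pgam1 (both libraries) and Ldha and Bnip3 (pulse) changed direction to ratios between 1.07 and 1.21. Per cell, an osteoblast-like cell held 0.376 and 0.390 Epas1 UMIs against 6.08 and 5.09 in an adipogenic CAR-like cell, and 0.655 and 0.565 Hk2 UMIs against 1.27 and 0.824, whereas it held 3.95 and 2.87 P4ha1 UMIs against 0.558 and 0.448.

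In endothelial-like cells, 26 members were tested, 11 were higher (18.9% of all genes) and 6 were lower (18.9% of all genes). The higher members were Pdk1, Pkm, Ddit4, Slc2a1, Hk1, Hif1a, Gpi1, Pfkl, Pfkp, Gapdh and Pgk1, and the lower ones Hk2, Slc2a3, Pfkfb4, P4ha2, Bnip3 and Tpi1. Thinned to 2000 UMIs, 6 were higher and 3 lower.

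Neutrophil-like cells had 27 members tested, 11 higher (11.7% of all genes) and 10 lower (61.9% of all genes), with medians of 0.36 and -0.13 against -1.35 and -1.30 over all genes. Here too the class's own markers, led by S100a8 and S100a9, stood at 432297 and 435047 CPM; with median-of-ratios size factors 5 members were lower. The higher members were Slc16a3, Gpi1, Pkm, Slc2a3, Pfkfb4, Pgk1, Gapdh, Eno1, Pgam1, Slc2a1 and Aldoa, so each of the 5 lower enzymes of glycolysis was among them. Myeloid progenitor-like cells had 29 tested, 12 higher (22.0% of all genes) and 9 lower (41.1% of all genes). Monocyte or macrophage-like cells had 29 tested, 8 higher (22.5% of all genes) and 6 lower (31.7% of all genes). B cell-like cells had 27 tested, 6 higher (18.0% of all genes) and 9 lower (29.4% of all genes). T or NK cell-like cells had 26 tested, 7 higher (13.3% of all genes) and 4 lower (23.2% of all genes). Erythroid-like cells had 26 tested, 3 higher (Hk1, Pfkm and Pdk1; 15.0% of all genes) and 16 lower (34.9% of all genes). Some of the lower calls in erythroid-like cells rest on almost no UMIs of that class. These were 1 in pulse and 0 in chase for Slc2a1, 1 and 3 for Pfkp, and 0 and 0 for P4ha2. The Pdk1 call there rests on 8 and 20 UMIs and was lost with cells under 5% mitochondrial UMIs, with each cell weighted equally (0.968 in pulse) and with cells thinned to 2000 UMIs (0 in pulse, 1.15 in chase). Gpi1, Gapdh, Pgk1 and Pkm were called higher in 5 of the 6 blood classes each, erythroid-like cells being the exception. In B cell-like cells the calls of Gpi1, Gapdh and Pkm were lost with cells thinned to 2000 UMIs. Those of Gapdh and Pkm were also lost there with each cell weighted equally. The share of all genes called higher in as many blood classes was not computed.

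**Figure D3:**
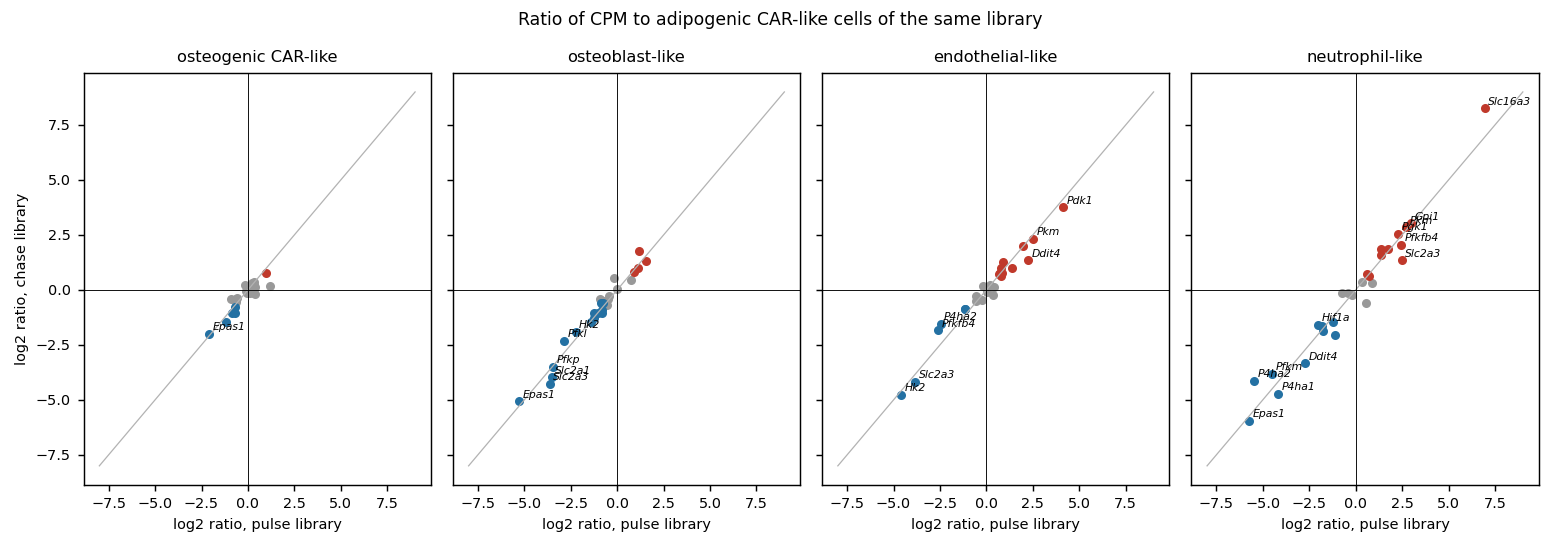
Log2 ratio of CPM of each member tested to adipogenic CAR-like cells in the pulse library (horizontal) and the chase library (vertical), for 4 classes; red and blue points were called higher and lower in both libraries, and members beyond 2 log2 units in pulse are named. Points lie close to the diagonal of equal ratios, with Epas1 low in osteogenic CAR-like, osteoblast-like and neutrophil-like cells and Slc16a3 far above the rest in neutrophil-like cells.

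Between the time points, adipogenic CAR-like cells had 28 members tested, of which 4 were higher in chase (7.20% of all genes) and 3 lower (6.18% of all genes). Ddit4 (chr10:59949669-59951834) went from 29.7 CPM in pulse to 64.9 CPM in chase, a ratio of 2.19 (2.02 to 2.37). Pfkfb3 went from 15.4 to 33.1 CPM (2.14, 1.91 to 2.40), and Slc2a3 from 33.4 to 61.3 CPM (1.83, 1.70 to 1.99). These are an mTORC1 inhibitor, an activator of glycolysis and a glucose transporter. Pdk1, at 3.57 and 5.85 CPM, was the fourth (1.64, 1.27 to 2.11). Lower in chase were Eno1 (60.8 and 38.1 CPM; 0.628, 0.580 to 0.679), P4ha2 (36.9 and 20.3 CPM; 0.552, 0.496 to 0.612) and Slc16a3 (67 and 15 UMIs; 0.282, 0.149 to 0.498). The 2 HIF subunits were not called: Epas1 had a ratio of 1.03 (1.01 to 1.05) and Hif1a 0.807 (0.772 to 0.843). The median log2 ratio of the members was -0.09 against -0.02 over all genes. With cells thinned to 2000 UMIs, Slc16a3 was not called and the other 6 were.

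Osteogenic CAR-like cells had 24 members tested, 2 higher (5.85% of all genes) and 3 lower (5.43% of all genes). Pfkfb3 went from 9.76 to 24.7 CPM (2.53, 1.70 to 3.81) and Slc2a3 from 18.1 to 29.6 CPM (1.64, 1.19 to 2.26). Eno1 went from 57.4 to 36.6 CPM (0.637, 0.504 to 0.802), P4ha2 from 45.9 to 26.0 CPM (0.567, 0.430 to 0.741) and Gapdh from 369 to 225 CPM (0.609, 0.556 to 0.668). Of these 5 genes, 4 were called the same way in adipogenic CAR-like cells of the same 2 libraries; Gapdh there was 298 and 246 CPM (0.826). With only cells under 5% mitochondrial UMIs, Slc2a3 was not called (1.30), and with cells thinned to 2000 UMIs Gapdh alone of the 5 kept its call.

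Osteoblast-like cells had 23 tested, 4 higher (6.86% of all genes) and 0 lower (3.69% of all genes). Their tdTomato level was 379 CPM in pulse and 1497 CPM in chase, and the part of this difference in the ratios was not tested. Ddit4 went from 56.6 to 113 CPM (2.00, 1.78 to 2.24), Pfkfb4 from 8.08 to 17.4 CPM (2.15, 1.58 to 2.94), Pfkfb3 from 6.34 to 13.7 CPM (2.15, 1.52 to 3.08) and Pfkl from 5.03 to 8.19 CPM (1.63, 1.06 to 2.50). With cells thinned to 2000 UMIs the Pfkfb3 ratio turned to 0.949, and Ddit4 alone kept its call. Endothelial-like cells had 21 tested, 0 higher (3.62% of all genes) and 0 lower (3.41% of all genes). Their Ddit4 was 138 and 164 CPM (1.19, 1.01 to 1.39) and their Pfkfb3 19.8 and 27.7 CPM (1.40, 0.928 to 2.13). The differences between classes in these ratios were not tested.

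**Figure D4:**
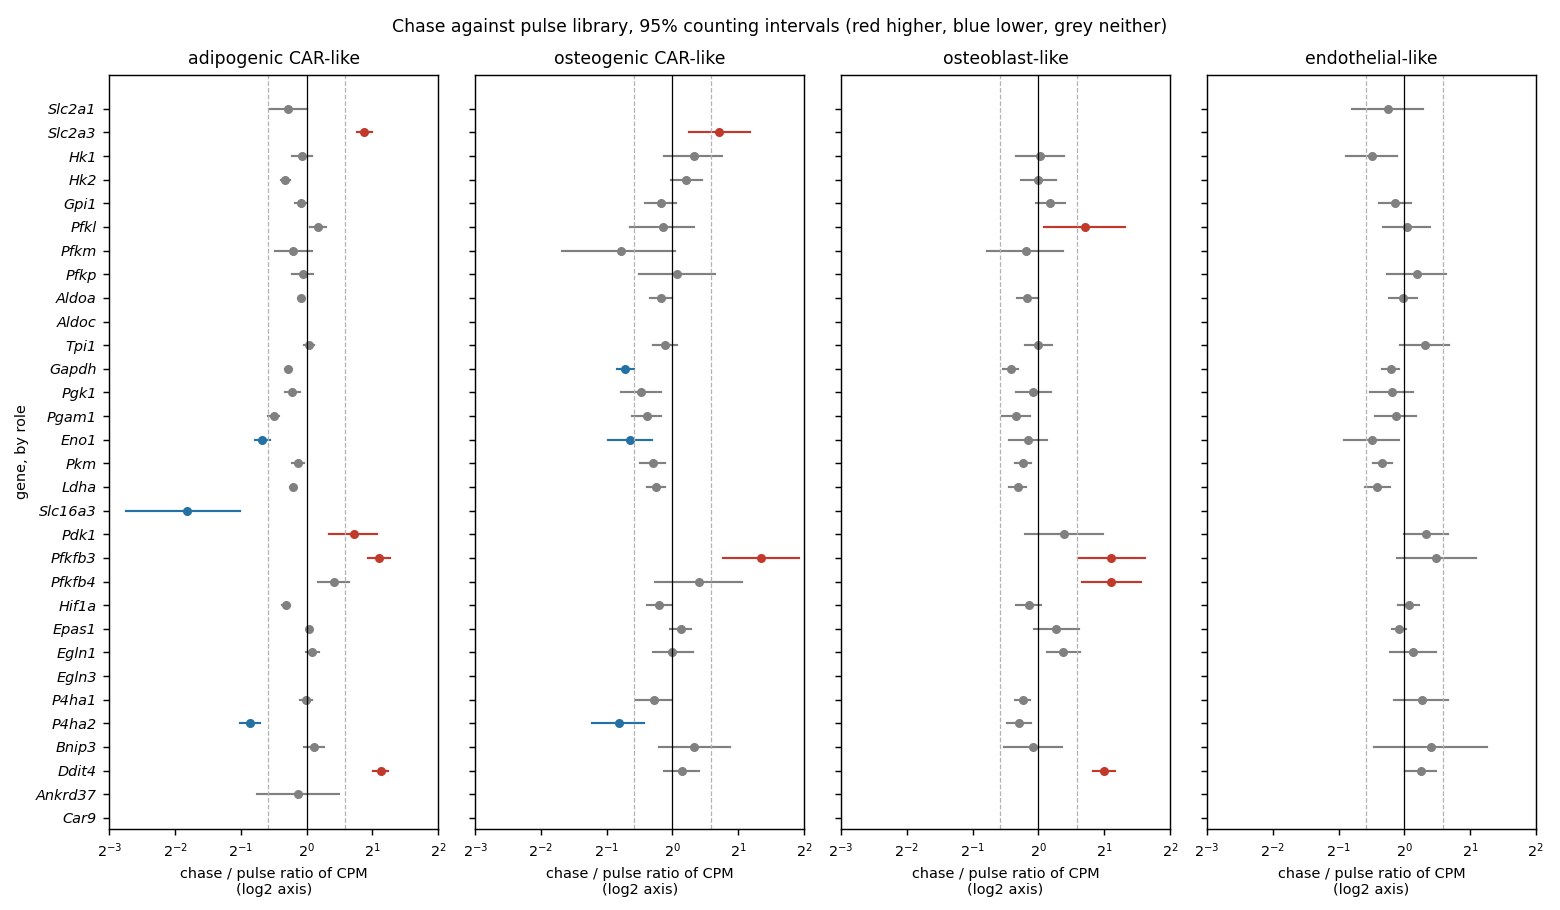
Ratio of CPM in chase to pulse (log2 axis) with 95% counting intervals for each member tested in 4 classes; dashed lines mark 1.5-fold. Pfkfb3 lies to the right of the upper line in adipogenic CAR-like, osteogenic CAR-like and osteoblast-like cells, Eno1 and P4ha2 lie to the left in both CAR-like classes, and no endothelial point is called.

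In most blood classes few members were called. Monocyte or macrophage-like cells had 27 tested, 0 higher (3.59% of all genes) and 1 lower (4.75% of all genes), P4ha1 (91.5 and 58.5 CPM; 0.640, 0.579 to 0.707). Neutrophil-like cells had 22 tested, 0 higher (4.23% of all genes) and 2 lower (4.08% of all genes), Hk1 (ratio 0.637, 0.492 to 0.821) and Bnip3 (10.5 and 5.94 CPM). Myeloid progenitor-like cells had 27 tested, 1 higher (Pfkfb3, 11.7 and 17.9 CPM; 2.55% of all genes) and 1 lower (Slc2a3, 9.30 and 5.39 CPM; 2.07% of all genes). T or NK cell-like cells had 15 tested, 1 higher (Slc2a3, 24.4 and 49.5 CPM; 8.60% of all genes) and 1 lower (Hif1a, 277 and 142 CPM; 5.40% of all genes). The Slc2a3 call in myeloid progenitor-like cells was lost with joint clusters (0.886), and that in T or NK cell-like cells with a stricter gate (2.01). Within the T or NK cell-like class the NK cell genes Klrb1c and Gzma summed to 575 and 104 CPM while the Cd3 genes were at 2188 and 2270 CPM, and the part of this shift in the Hif1a value was not tested. Erythroid-like cells had 9 tested, 1 higher (Tpi1, 90.5 and 141 CPM; 7.64% of all genes) and 0 lower (5.82% of all genes).

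B cell-like cells had 15 members tested, 5 higher (11.0% of all genes) and 1 lower (16.5% of all genes), and the median log2 ratio was 0.43 against -0.07 over all genes. Ldha went from 216 to 381 CPM (1.76, 1.52 to 2.05), Tpi1 from 91.7 to 161, Pgk1 from 95 to 159, Pkm from 138 to 222 and Gapdh from 563 to 857 CPM (1.52, 1.38 to 1.67), while Hif1a went from 102 to 46.3 CPM (0.455, 0.323 to 0.632). The cells behind these sums were not alike: 455 pulse cells had a median of 2234 UMIs and 141 chase cells a median of 4108. Ms4a1, a gene of later B cells, was at 1262 and 253 CPM, and the precursor genes Vpreb3 and Igll1 summed to 1415 and 2039 CPM. With every cell thinned to 2000 UMIs no member was called higher (Ldha 1.41, Pgk1 1.11), and with each cell weighted equally 1 was. The part of depth and of B cell stage in the result was not tested.

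By gene over the 10 classes, Pfkfb3 was called higher in chase in 4 of 8 classes tested and Slc2a3 in 3 of 6, with 1 lower. Ddit4 was higher in 2 of 7, Eno1 lower in 2 of 10 and P4ha2 lower in 2 of 3. Of all genes tested, between 2.55% and 11.0% were higher in chase and between 2.07% and 16.5% lower, depending on the class. With cells thinned to 2000 UMIs, Pfkfb3, Slc2a3, Eno1 and P4ha2 kept their calls only in adipogenic CAR-like cells. Gpi1 and Aldoa, tested in all 10, were called in none, with ratios between 0.884 and 1.13 and between 0.743 and 1.13.

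As a description over the 10 classes (log2 of CPM plus 1, mean of the 2 libraries), the members with the most alike patterns were Pgk1 and Eno1 (Pearson r = 0.98), Gpi1 and Pgk1 (0.96) and Gapdh and Pgk1 (0.95), and outside the glycolytic enzymes Hif1a and Egln1 (0.93). Hk2 was most like Pfkfb4 (0.78) and least like Pdk1 (-0.71). P4ha2 was least like Gapdh (-0.84). These classes share libraries and their depth.

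Related genes outside the 31 members gave the following. Of 33 further hypoxia targets, 31 were tested in adipogenic CAR-like cells between the time points, 3 were higher in chase (Adm, Ndrg1, Bhlhe40; 7.20% of all genes) and 4 lower (Higd1a, Plod2, Anxa2, Tgfa; 6.18% of all genes). Bhlhe40, a circadian repressor, went from 22.7 to 45.6 CPM and Plod2, a collagen lysyl hydroxylase, from 215 to 111 CPM. In osteoblast-like cells the same list had 3 higher (6.86% of all genes) and 6 lower (3.69% of all genes) of 30 tested, and Adm, the vasodilator adrenomedullin, went the other way, from 30.7 to 7.51 CPM; the difference between the classes was not tested. Of 14 regulators of the HIF subunits, all tested in adipogenic CAR-like cells, 0 were higher in chase and 0 lower (7.20% and 6.18% of all genes). Their median log2 ratio of chase to pulse was -0.33 against -0.02 over all genes. Of 7 pentose phosphate genes, 0 were higher and 2 lower (7.20% and 6.18% of all genes) in chase adipogenic CAR-like cells, with Pgd from 169 to 89.4 CPM and Pgls from 179 to 117 CPM. In neutrophil-like cells 6 of these 7 were higher than in adipogenic CAR-like cells (11.7% of all genes), led by Tkt at 902 and 898 CPM against 78.2 and 70.8 CPM. Of 18 genes of pyruvate and lactate handling, all 18 were tested in endothelial-like cells, which had 1 higher (18.9% of all genes), the lactate transporter Slc16a1 (55.9 and 53.4 CPM against 8.48 and 9.66), and 9 lower (18.9% of all genes), among them Mpc2, a subunit of the mitochondrial pyruvate carrier (77.3 and 77.5 CPM against 309 and 200). Of 17 other glycolytic isozymes, 9 were tested in erythroid-like cells and 3 were higher (15.0% of all genes), including Bpgm, which makes the bisphosphoglycerate of red cells (151 and 104 CPM against 7.40 and 8.79).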

How the data were processed

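The data are 2 10x Genomics 3′ (v3.1) single-cell libraries. Raw UMI counts, 1 value for a gene in a barcode, are what the authors deposited. Cell Ranger 6.0.2 is named per the file headers and 2.1.1 per the submitters' processing notes, which also give the genome build mm10. Barcodes were kept from 500 detected genes and 1000 UMIs upwards if mitochondrial genes gave under 10%, and Scrublet (scanpy 1.11.5) removed 178 pulse and 110 chase doublets. A marker counted with at least 2 UMIs. A cell joined the class with the highest share of its markers, at 50% or more; ties, cells meeting classes of 2 compartments and cells of no class were left out. These thresholds were set after the marker counts were seen. UMIs were summed per class and library and divided by the class total (CPM). Ratios carry exact conditional 95% intervals, and a call needed 1.5-fold and an interval that excludes 1, over genes with at least 50 UMIs. Log2 ratios carry a prior count of 0.5. With 1 library per group no p-value was computed. The call script was tested on simulated data. Shares of cells used cells thinned to 2000 UMIs. Positions are from GENCODE vM21. Members were given all values by role, with full values for the largest ratios. The members and gene lists were chosen with earlier results of these data known.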

Additional observations from a re-analysis of the deposited data

Results flagged for a closer look

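Between the time points, 2 members were called in opposite directions in different classes; these differences between classes were not tested. The chase-to-pulse ratio of Gapdh was 0.609 in osteogenic CAR-like cells and 1.52 in B cell-like cells. The B cell-like call was lost with a stricter gate (1.44), under 5% mitochondrial UMIs (1.49), with each cell weighted equally (1.46) and with thinned cells (1.11). That of Slc2a3 was 1.83 in adipogenic CAR-like, 1.64 in osteogenic CAR-like and 2.03 in T or NK cell-like cells (11 pulse UMIs), and 0.580 in myeloid progenitor-like cells. The myeloid progenitor-like call was lost with joint clusters (0.886), under 5% mitochondrial UMIs (0.638), with each cell weighted equally (0.683) and with thinned cells (0.222). The T or NK cell-like call was lost with a stricter gate (2.01), without mitochondrial and ribosomal protein genes (1.85) and with thinned cells (3.67), and the osteogenic CAR-like call under 5% mitochondrial UMIs (1.30) and with thinned cells (1.52). At a 2-fold threshold only the T or NK cell-like call of these 6 was kept.

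Osteoclast-like cells, gated on Acp5, Ctsk and Mmp9, were too few to compare (18 cells in each library) and lie outside the comparisons above. In both libraries the lower bounds of Aldoc, Aldoa, Tpi1 and Eno1 there were above the upper bounds in all 10 classes compared. The share of all genes for which this holds was not computed. Aldoc, almost undetected elsewhere, was at 23.7 CPM in pulse (12 UMIs) and 30.3 CPM in chase (15 UMIs). Aldoa was at 1030 and 917 CPM, Tpi1 at 306 and 339 CPM and Eno1 at 265 and 277 CPM.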

How the results depend on the processing

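No paired analysis was possible because each time point has 1 library; for the same reason no library could be left out. The results include 172 calls of members. Of these, 171 were kept with doublets retained, 172 with no filter on low counts, 162 with a stricter gate, 158 with totals lacking mitochondrial and ribosomal protein genes, 157 with cells under 5% mitochondrial UMIs, 156 with joint Leiden clusters, 155 with each cell weighted equally, 149 with median-of-ratios size factors, 113 at a 2-fold threshold and 105 with cells thinned to 2000 UMIs. The cause was not tested; with thinned cells fewer members passed the filter, and some ratios also moved (B cell-like Gapdh from 1.52 to 1.11).

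Counts between the time points that moved by over 1.5 times were as follows. With joint clusters, lower members were 5 in osteogenic CAR-like, 2 in monocyte or macrophage-like, 2 in myeloid progenitor-like, 3 in T or NK cell-like and 1 in erythroid-like cells, and higher members 1 in endothelial-like and 0 in erythroid-like cells. With the stricter gate, lower members were 1 in neutrophil-like and 2 in T or NK cell-like cells, and higher members 0 in myeloid progenitor-like and T or NK cell-like cells. Under 5% mitochondrial UMIs, higher members were 1 in osteogenic CAR-like and 0 in erythroid-like cells, and lower members 1 in endothelial-like, neutrophil-like and erythroid-like and 0 in myeloid progenitor-like cells. With median-of-ratios size factors, monocyte or macrophage-like cells had 2 higher and 0 lower, erythroid-like cells 0 higher, and neutrophil-like and myeloid progenitor-like cells 1 and 2 lower. Without mitochondrial and ribosomal protein genes, higher members were 0 in T or NK cell-like and 2 in erythroid-like cells. With no low-count filter, lower members were 1 in osteoblast-like and 5 in erythroid-like cells. With each cell weighted equally, higher members were 0 in myeloid progenitor-like, 1 in B cell-like and 2 in erythroid-like cells.

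At 2-fold, higher members were 2 in adipogenic CAR-like, 1 in osteogenic CAR-like, 2 in osteoblast-like and 0 in myeloid progenitor-like, B cell-like and erythroid-like cells. Lower members were 1 in adipogenic CAR-like and 0 in osteogenic CAR-like, monocyte or macrophage-like, neutrophil-like, myeloid progenitor-like and T or NK cell-like cells. With thinned cells, higher members were 1 in osteoblast-like and endothelial-like and 0 in osteogenic CAR-like, myeloid progenitor-like, B cell-like, T or NK cell-like and erythroid-like cells, lower ones 0 in neutrophil-like and myeloid progenitor-like cells, and the osteoblast-like Pfkfb3 ratio was 0.949.

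Against adipogenic CAR-like cells, joint clusters gave 7 lower in T or NK cell-like cells. Median-of-ratios factors gave 7 higher and 6 lower in osteoblast-like and 5 lower in neutrophil-like cells. They reversed the osteoblast-like ratios of Gpi1 (1.07 in pulse, 1.20 in chase), Pgam1 (1.16 and 1.21), Ldha (1.11 in pulse) and Bnip3 (1.09 in pulse), and the neutrophil-like Bnip3 ratio in pulse (1.06). At 2-fold, osteogenic CAR-like cells had 0 higher and 2 lower, endothelial-like 4 higher and B cell-like 2 higher. Thinned, osteogenic CAR-like cells had 3 lower, endothelial-like 6 higher and 3 lower, myeloid progenitor-like 5 lower, B cell-like 1 higher and 5 lower, and erythroid-like 1 higher and 9 lower, and the chase ratios of Pfkm in myeloid progenitor-like (1.01) and Pfkl in erythroid-like cells (1.14) reversed. With each cell weighted equally, the erythroid-like Pdk1 ratio in pulse was 0.968, and with thinned cells it was 0.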
